A study of Homo sapiens with 8 samples.

Results

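Origins of replication in HCT116 cells without ORC1 (ORC1KO) were compared directly with those in HCT116 cells without ORC2 (ORC2KO), with one knockout line set against the other and not against the parent. Rows of the ORC1KO and ORC2KO count tables on chromosomes 1 to 22 or X were paired where the 2 regions covered 0.5 or more of each other. Pairing used positions only, but the rows rest on peaks called from these reads. An origin called in only 1 of the 2 lines and absent from WT could therefore not be matched. Pairing gave 35250 matched origins, from 42156 rows of the ORC1KO table and 44170 rows of the ORC2KO table on these chromosomes. The 3 tables of the series hold 133590 rows. HCT116 is an epithelial colon cancer line, and all lines of the study, the parent labelled WT included, also lack p53 (p53-/-). ORC1KO and ORC2KO cells were made from it with CRISPR–Cas9. The labels name no treatment. The study speaks of clones of cells, and no second line of either genotype was analysed. Short nascent strands were sequenced from 2 biological replicates per line, 4 samples for the 2 lines and 8 in the series, and the tables merge the replicates. Each line therefore has 1 value per origin, no test between the lines is possible, and the intervals below cover counting error only.

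The origin recognition complex, ORC, binds DNA in G1 phase and, with CDC6 and CDT1, loads the MCM2–7 helicase as a double hexamer. ORC1 is the subunit whose level cycles and whose ATPase drives loading, while ORC2 belongs to the core of the complex. SNS-seq sequences the short new strands, protected from lambda exonuclease by their RNA primers, that mark where loaded helicases have fired. In human cells such sites lie often in GC-rich promoters and at stretches where G and C are split unevenly between the strands.

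The 6 sequences that follow show the kinds of origin on which the lines differ or do not. All are from hg38, on the forward strand, 160 bases around the middle of the origin for the first 5. The first is from a promoter whose origin was lower in ORC1KO cells, at ELFN1 (chr7:1665655-1665814). The next 3 belong to origins that were higher in ORC1KO cells, in an intron of CSNK1G2 (chr19:1959529-1959688), in an exon of UBE2Q1 (chr1:154550521-154550680) and in an intron of E2F3 (chr6:20412486-20412645). In these 4, capitals mark CG dinucleotides.
ELFN1: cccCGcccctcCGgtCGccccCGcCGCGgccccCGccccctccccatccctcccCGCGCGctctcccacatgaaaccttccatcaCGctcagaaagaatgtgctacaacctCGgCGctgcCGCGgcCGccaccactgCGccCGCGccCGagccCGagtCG
CSNK1G2: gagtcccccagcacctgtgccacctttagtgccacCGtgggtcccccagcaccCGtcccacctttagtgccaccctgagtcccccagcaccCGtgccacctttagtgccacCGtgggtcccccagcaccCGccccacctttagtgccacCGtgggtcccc
UBE2Q1: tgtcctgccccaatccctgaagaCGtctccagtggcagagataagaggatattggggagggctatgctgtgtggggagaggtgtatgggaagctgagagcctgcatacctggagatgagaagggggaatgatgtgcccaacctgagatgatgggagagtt
E2F3: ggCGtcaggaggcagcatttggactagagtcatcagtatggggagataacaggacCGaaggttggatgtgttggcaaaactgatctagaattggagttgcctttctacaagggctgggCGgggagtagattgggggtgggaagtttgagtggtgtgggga
The ELFN1 window holds 22 CG dinucleotides, CSNK1G2 6, E2F3 3 and UBE2Q1 1. At least 1 CG lies in 84.1% of the windows of this length around all matched origins, and the median is 2. Windows with 10 or more make up 8.60% of all windows, 33.9% of those of origins lower in ORC1KO cells and 2.70% of those of origins higher in ORC1KO cells. The fifth sequence, from an intron of PNPLA7 (chr9:137517931-137518090), belongs to one of the strongest origins of either line and has far more C than G on this strand. Capitals mark runs of 3 or more G or C, of which all windows hold a median of 7 and 98.2% hold at least 1.
PNPLA7: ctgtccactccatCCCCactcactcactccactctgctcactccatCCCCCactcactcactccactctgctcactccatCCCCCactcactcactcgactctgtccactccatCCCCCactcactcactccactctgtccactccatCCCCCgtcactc
The sixth is centred on the repeat in an intron of ZFPM1 (chr16:88520488-88520647), with capitals for ATCC repeated 4 or more times without a break. All rotations of the unit and both strands were searched. Such a repeat lies in 1.38% of windows of 160 bases and in 938 matched origins (2.66%).
ZFPM1 repeat: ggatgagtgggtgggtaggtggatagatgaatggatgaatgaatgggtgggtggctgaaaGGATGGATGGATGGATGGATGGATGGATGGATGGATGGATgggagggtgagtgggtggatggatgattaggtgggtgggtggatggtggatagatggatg

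The 2 lines used the matched origins at much the same levels. In ORC1KO cells 6691088 reads fell in 42421 rows, and in ORC2KO cells 7808290 reads fell in 44447 rows. The matched origins held 87.2% of the ORC1KO reads and 86.2% of the ORC2KO reads. A matched origin had a median of 127 reads in ORC1KO cells (range 21 to 3626) and 142 in ORC2KO cells (17 to 4158). Levels are given as RPM per kb (reads in the region scaled to the line's total and to the region's width), and the medians were 34.6 in ORC1KO and 32.2 in ORC2KO cells. Across the 35250 origins the log2 levels of the lines had a Pearson r of 0.87, a description over regions that share base composition and mapping. Of the 3525 strongest origins of each line, 2888 (81.9%) were the same ones, and of the 3525 weakest 1720 (48.8%).

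The median log2 ratio of ORC1KO over ORC2KO was 0.09, with quartiles of −0.07 and 0.26. An origin was called higher or lower in ORC1KO cells at 1.5-fold, the threshold of the study's methods. By this rule 1187 of 35250 origins (3.37%) were higher and 242 (0.687%) were lower in ORC1KO cells. The ratio had an SD of 0.27 over origins, where the counts alone would give 0.18. Its exact 95% interval lay above 0 for 4863 origins and below 0 for 1608, and lay wholly beyond 1.5-fold for 108 higher and 37 lower origins. The share of calls that were higher, 83.1%, depended on the scaling. It was 64.6% (1004 higher, 551 lower) when each line was first divided by the WT reads of its own table, and 62.5% (522 and 313) after the trend with GC content was removed. The WT reads, which were counted anew in the regions of each table, gave a median log2 ratio of 0.05 between the tables. Its SD was 0.12, and 41 and 2 origins were past 1.5-fold. These are the same WT libraries, scaled to table totals of 6416892 and 6640888 reads. Where limits and WT reads were equal, as at CSNK1G2 (168 in both), the totals alone gave 0.05. As the ratio of ratios to WT, the median over origins was 0.0042.

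Among the origins with 100 or more reads, ranked by the bound of the interval nearest 0, the 10 highest and the 10 lowest were named, at most 1 per Mb. The highest was in an intron of CSNK1G2, which encodes a membrane-bound casein kinase 1 (chr19:1959366-1959851). It had 164 reads in ORC1KO cells and 29 in ORC2KO cells, or 50.4 and 7.64 RPM per kb, a log2 ratio of 2.72 (2.15 to 3.35). The WT reads were 168 in both tables, so that the ORC1KO line was near WT (log2 −0.10) and the ORC2KO line was low (−2.77). A second origin 8351 bp further along the chromosome (chr19:1967717-1968314), which was picked out after its values were seen, had 102 and 17 reads and a log2 ratio of 2.78 (2.03 to 3.62). No matched origin lay between these 2. The other 8 matched origins within 60 kb had ratios of 0.29 to 0.67. The nearest of them, at chr19:1958279-1959085, had 397 and 357 reads (0.37). Within this distance a ratio above 1 was seen at the pair alone, and the copy number of the gene was not measured.

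The 9 next highest origins all lay in 3 places, on chromosomes 6, 13 and 18. On chromosome 6 they were in introns of DTNBP1, a subunit of the BLOC-1 trafficking complex (156 against 49 reads, 1.61), ATXN1 (99 against 40, 1.53), E2F3, a transcription factor of S-phase genes (122 against 52, 1.45), and the BLOC1S5-TXNDC5 read-through gene (227 against 93, 1.39). The remaining 2 on this chromosome lay near SERPINB6 (100 against 36, 1.70) and TUBB2A (260 against 115, 1.30). One origin on chromosome 18 lay 23340 bp from ZNF397 (chr18:35217230-35217690), with 129 and 46 reads (1.71, 1.21 to 2.23), and another 2124694 bp from PIK3C3, with 80 and 31 reads (1.59). On chromosome 13 an exon of C13orf46 (chr13:113954913-113955281) had 79 and 26 reads (1.83, 1.17 to 2.53). In these 9 the log2 ratio of ORC1KO over WT ran from −0.28 to 0.18, and that of ORC2KO over WT from −2.06 to −1.12.

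The lowest origins were of other kinds. The lowest of all lay at the promoter of ELFN1, a synaptic membrane protein with leucine-rich repeats (chr7:1665498-1665971, GC content 80.4%), with 38 reads in ORC1KO and 133 in ORC2KO cells, or 11.98 and 35.9 RPM per kb (log2 −1.58, −2.14 to −1.05). Promoters of PRKAR1B, a regulatory subunit of protein kinase A (104 against 311 reads, −1.12), ROCK2, a kinase that acts on the cytoskeleton (51 against 175, −1.20), the syntrophin gene SNTG2 (137 against 322, −0.98) and the zinc finger factor KLF11 (120 against 311, −0.90) followed, all with a GC content of 72.9% or more. ROCK2, SNTG2 and KLF11 lie in the first 22 Mb of chromosome 2. PRKAR1B lies with ELFN1 in the first 2 Mb of chromosome 7. The origins of ENSG00000288936 and near SHISAL2B, given next, lie between 54 and 67 Mb on chromosome 5. Of the lowest 10, 5 were at the promoters of protein-coding genes named above. Another, in the lncRNA gene ENSG00000288936 (67 against 172 reads, −1.14), lay within 1000 bp of a protein-coding start site. The last 4 lay outside genes. They were near SHISAL2B on chromosome 5 (84 against 218 reads, −1.15), at chr20:30513582-30514714 (124 against 452, −1.10) and at chr22:11629468-11631228 (393 against 843, −0.76). The last was at the start of chromosome 12 (chr12:9871-10739, 163 against 351, −0.85). This chromosome 12 origin holds a telomeric repeat, and the effect of repeats on mapping and on these ratios was not tested.

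**Figure D1:**
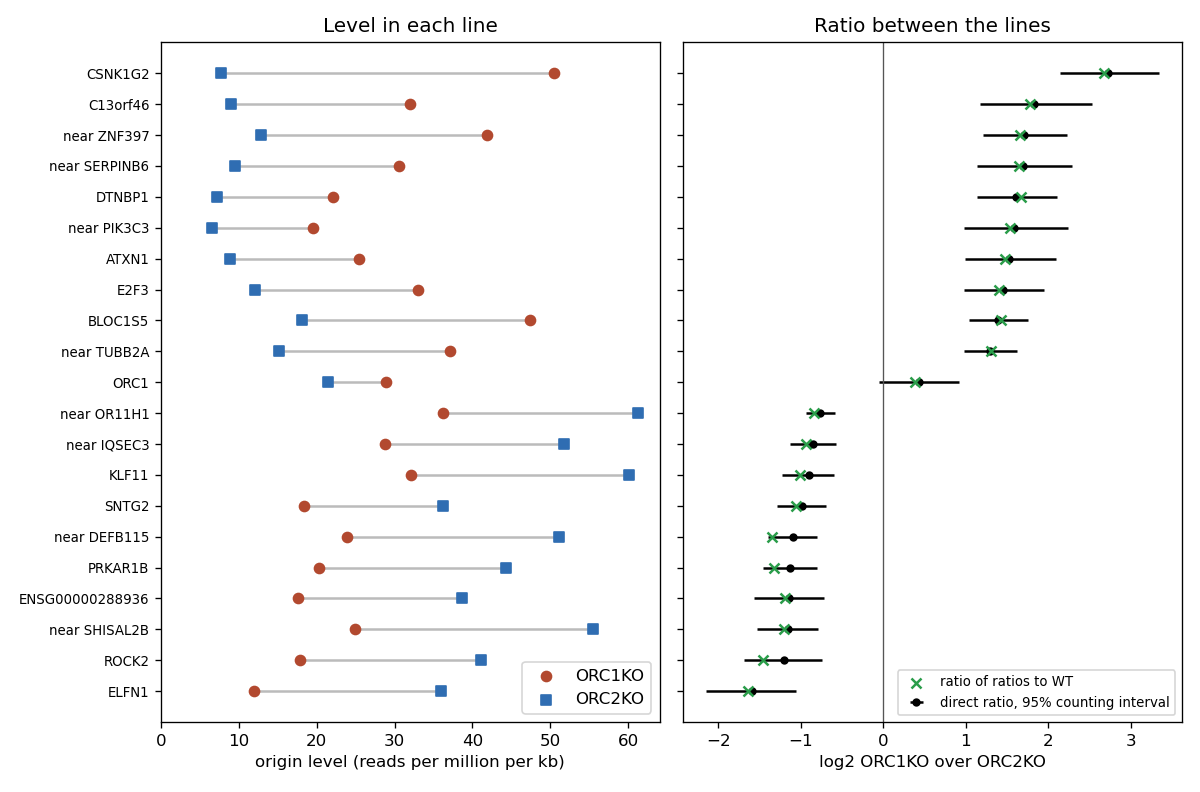
Left, level of the named origins in RPM per kb in ORC1KO (circles) and ORC2KO (squares) cells, with the origin in the ORC1 gene. Right, log2 ratio of the lines with its exact 95% counting interval (black) and the ratio of ratios to WT (crosses). The highest origin, in CSNK1G2, had 50.4 against 7.64 RPM per kb, and the lowest, at ELFN1, 11.98 against 35.9; the interval of the ORC1 origin spans 0.

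The ratio followed base composition. Origins below 45% GC had a median log2 ratio of 0.20 (n = 4541) and origins of 65% GC or more had −0.14 (n = 3592), a difference of 0.34 against the median of 0.09 over all origins. From 0.21 at 40% to 45% GC (n = 3489) the median went down in every step to −0.28 at 75% or more (n = 329). Below that peak it was lower again, 0.16 at 35% to 40% (n = 933) and 0.09 below 35% (n = 119). At 60% to 65% the median was −0.03 (n = 4900). The trend was seen in ORC1KO over WT and little in ORC2KO over WT. The former went from 0.12 to −0.51 between 40% to 45% and 75% or more, and the latter from −0.03 to −0.11. Across origins, Pearson r with GC content was −0.42 for ORC1KO over WT and −0.09 for ORC2KO over WT. When each line was set against ORC5KO cells in the same way, the difference between the 2 GC classes was 0.35 for ORC1KO (35834 matched origins) and −0.0038 for ORC2KO (37394 matched origins), comparisons that share the ORC1KO and ORC2KO libraries with the direct one. Depth, fragment length and library preparation of the replicates were not given per library in the sources used here, and their part in the GC trend was not tested.

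Origins called higher in ORC1KO cells had a median GC content of 48.5% and those called lower 62.8%, beside 53.6% for all matched origins. Short runs of G or C followed the same order, with 32.4 runs of 3 or more per kb in the higher, 62.8 in the lower and 43.6 in all origins. The observed over expected CpG was 0.21, 0.42 and 0.26. CpG-island-like origins (GC content of 50% or more and observed over expected CpG above 0.6 over the whole origin) made up 10.7% of all origins, 39.7% of the lower calls and 4.21% of the higher calls. Their median ratio was −0.10 (n = 3770), where ORC1KO over WT was −0.29 and ORC2KO over WT −0.07. In origins with few runs of G or C (20 to 30 per kb, n = 5028) the median was 0.22.

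**Figure D2:**
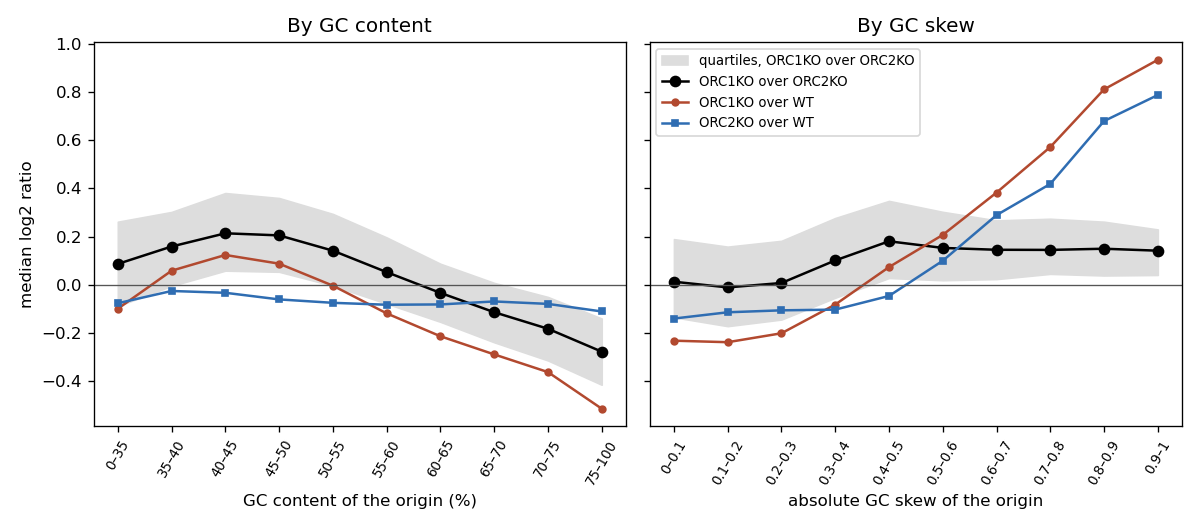
Median log2 ratio (y axis) of ORC1KO over ORC2KO (black, with quartiles shaded), ORC1KO over WT (red circles) and ORC2KO over WT (blue squares) by GC content in percent (left) and by absolute GC skew (right). ORC1KO over WT goes down from 0.12 at 40% to 45% GC to −0.51 at 75% or more. ORC2KO over WT stays between −0.11 and −0.03 in all GC classes. Both ratios to WT, which share the WT libraries, are highest at high skew.

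Promoters, which are rich in GC, had lower ratios than other origins. Only start sites of protein-coding genes were used. Origins within 1000 bp of one had a median log2 ratio of −0.07 (n = 4637). Exons had −0.0048 (n = 3051), introns 0.12 (n = 13677), lncRNA genes 0.13 (n = 3816) and other intergenic origins 0.12 (n = 10069). Promoters held 28.1% of the lower calls, 3.62% of the higher calls and 13.2% of all origins. At 60% GC or more the median was −0.13 in promoters (n = 2894) and −0.05 elsewhere (n = 5598), and below 60% it was 0.05 (n = 1743) and 0.15 (n = 25015). With the GC trend removed, the difference of promoters from the other origins was −0.04, and before it −0.18. Around start sites the median was lowest, −0.12, in the 500 bp upstream (n = 1355) and −0.09 in the 500 bp downstream (n = 1469), and 0.16 and 0.17 beyond 100 kb on either side. ORC1KO over WT had the same dip (−0.28 in the 500 bp upstream), and ORC2KO over WT was −0.07 there.

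**Figure D3:**
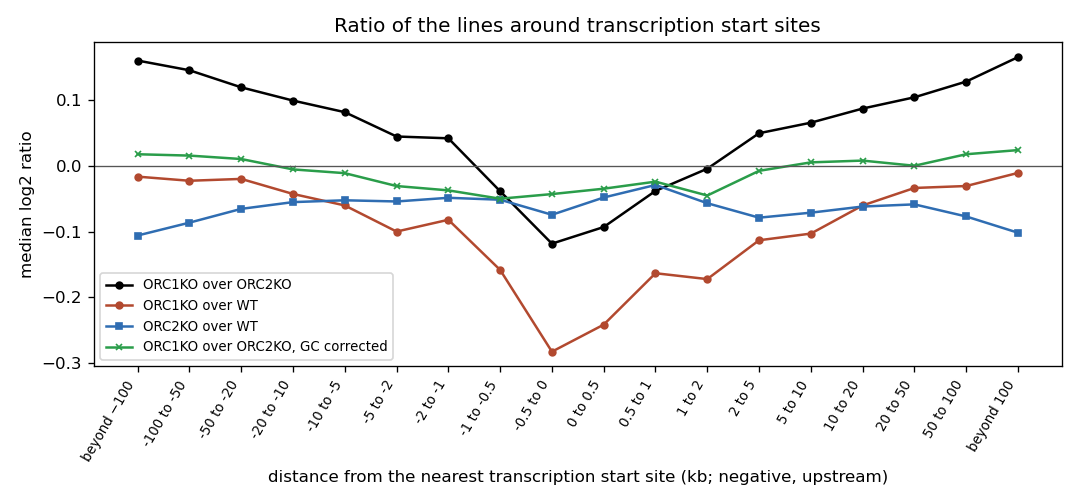
Median log2 ratio (y axis) by distance of the origin from the nearest protein-coding transcription start site in kb (x axis, negative upstream). ORC1KO over ORC2KO (black) dips to −0.12 just upstream of start sites, as does ORC1KO over WT (red), and the GC-corrected ratio (green) stays between −0.05 and 0.02.

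Strand asymmetry was measured as GC skew (the difference of G and C over their sum, taken without sign). At high skew the medians of both knockout lines lay above WT, whereas over all origins both were −0.07. Both ratios divide by reads of the same WT libraries, so their common direction is not independent between the lines. Whether skew itself has an effect was not tested. In the 773 origins with a skew of 0.8 or more, ORC1KO over WT had a median log2 ratio of 0.83 and ORC2KO over WT 0.70. The direct ratio there was 0.15, or 0.06 above the median of all origins, and after removal of the GC trend it was −0.03. The PNPLA7 origin printed above, with a skew of −0.87, had 2213 and 2407 reads, which are 153 and 144 RPM per kb (0.09, 0.01 to 0.18). In the 938 origins with the ATCC repeat the lines were 0.56 and 0.40 above WT. The direct ratio there was 0.15, and after removal of the GC trend it was −0.02. The most deeply read of these outside chromosome 8, the ZFPM1 intron printed above, had 1586 and 1844 reads (−0.02, −0.12 to 0.08). Within GC classes the direct ratio was highest at a skew of 0.4 to 0.6 below 45% GC (0.29, n = 1299) and lowest below a skew of 0.2 at 65% GC or more (−0.19, n = 971). At a skew of 0.8 or more the medians of both lines were above WT, by more than they differed from each other. At 65% GC or more and a skew of 0.6 or above, both medians were below WT (−0.10 and −0.15, n = 24).

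The ratio also differed between large stretches of chromosomes. The genome was cut into 5 Mb blocks, of which 415 held 20 or more matched origins and 54 had a median log2 ratio beyond 0.25 from 0 (51 above and 3 below). This split depended on the scaling, since the median over blocks was 0.12. With the median of all origins set to 0, 21 blocks were above and 5 below, and after GC correction 10 were above and 6 below. These 54 blocks held 8.14% of the matched origins, 44.1% of the higher calls and 47.5% of the lower calls, shares that follow in part from the choice of blocks by the same ratio. In the first 27 Mb of chromosome 6, 180 of 248 origins were called higher (72.6%, beside 3.37% of all matched origins) and none lower. The median ratio there was 0.85. ORC1KO over WT was −0.09 there and ORC2KO over WT −0.94. The same pattern, with ORC1KO near WT and ORC2KO low, was seen on chromosomes 13 and 18. The distal end of chromosome 13, about its last 4 Mb, had 0.65 (93 of 145 origins higher, 64.1%, ORC2KO over WT −0.73). Chromosome 18 from 35 to 40 Mb had 0.75 (31 of 42 higher, 73.8%, ORC2KO over WT −0.89).

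In the stretches of chromosomes 5 and 7 the ORC1KO line was the one farther from WT. Over the first 2 Mb of chromosome 7 the median was −0.68, with 94 of 156 origins lower (60.3%, beside 0.687% of all matched origins). ORC1KO over WT was −0.78 there and ORC2KO over WT 0.01. Chromosome 5 changed direction along its length, with 0.22 from 0 to 20 Mb. From 30 to 45 Mb it had 0.52 (29 of 79 higher, 36.7% beside 3.37% of all, ORC1KO over WT 0.38). From 54 to 67 Mb it had −0.60 (25 of 49 lower, 51.0%, ORC1KO over WT −0.84). In the first 22 Mb of chromosome 2 the median was −0.25 (26 of 363 lower, 7.16%), with ORC2KO over WT at 0.35. All of chromosome 8 had 0.26 (n = 1952), with 183 higher (9.38%, beside 3.37% of all) and none lower. Of its 26 blocks, 21 were beyond 0.25. After GC correction its median was 0.14, and 2 of its blocks were then beyond 0.25. The rest of chromosome 13 had 0.22 (n = 497), whereas chromosomes 19 and X had medians of −0.0030 (n = 2659) and −0.0022 (n = 335). After GC correction these medians were 0.08, −0.04 and −0.08, in the same order.

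The origins outside these stretches, whose limits were read from the medians of 1 Mb bins after seeing the data (on chromosome 5 all of the first 67 Mb), numbered 31403. Of these, 623 (1.98%) were higher and 92 (0.293%) lower, and the difference between the GC classes was 0.33, as large as with the stretches. The 92 lower origins had a median GC content of 68.9% and the 623 higher origins 47.9%. The DNA copy number of the lines was not analysed here, so that more copies of a stretch and more initiation per copy cannot be told apart.

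**Figure D4:**
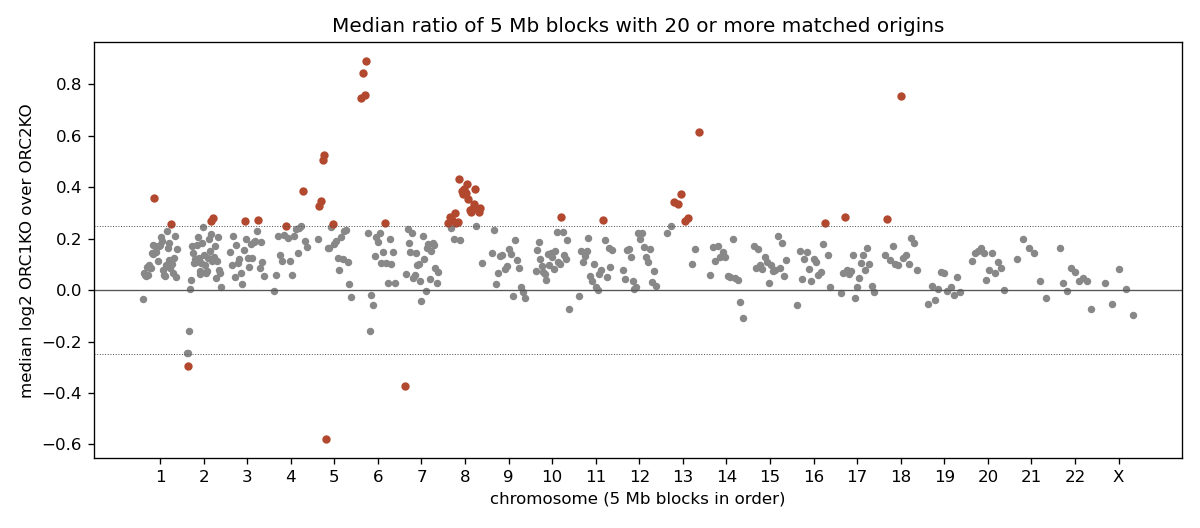
Median log2 ratio of ORC1KO over ORC2KO (y axis) in 415 blocks of 5 Mb with 20 or more matched origins, by chromosome and in order along it. Red points lie beyond 0.25 from 0 (dotted lines), with 51 above and 3 below; those on chromosomes 6, 13 and 18 reach over 0.6 and most of chromosome 8 lies above 0.25.

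Outside the called blocks, the ranking by interval again began with CSNK1G2 and went on with chromosome 6 between 20 and 27 Mb. The block from 20 Mb held too few origins to be called, and that from 25 Mb, which runs past the end of the stretch, had a median of 0.22 (n = 41). There it gave E2F3, introns of the actin regulator CARMIL1 (148 against 67 reads, 1.37) and of GPLD1 (109 against 43, 1.43), the lncRNA gene CASC15 (282 against 172, 0.94) and an origin near BTN3A2 (107 against 40, 1.23). Elsewhere the ranking gave an intron of HAO1 and, next, an exon of the ubiquitin-conjugating enzyme gene UBE2Q1 (chr1:154550338-154550864), with 81 and 41 reads, 22.97 and 9.96 RPM per kb (1.21, 0.65 to 1.78), whose 5 matched neighbours within 60 kb had ratios of −0.26 to 0.25. For introns of HAO1, SIAE and OSBPL10 the direct ratios of 0.94 to 0.96 came with a log2 ratio of the WT reads between the tables of 0.46 to 0.58, and the ratio of ratios to WT was 0.37 to 0.49, lower than the direct values. Among the lowest outside the blocks was the promoter of FST, which encodes the activin-binding follistatin (70 against 171 reads, −0.97), which lies just before the stretch of chromosome 5 with lower ratios. An intron of MAEA, a subunit of a ubiquitin ligase (chr4:1323865-1324931), was above WT in both lines (log2 1.26 and 2.10) with 297 and 575 reads (−0.76, −0.96 to −0.55), and an exon of TEX22 had 36 and 89 reads (−1.08).

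The strongest origins did not differ by much. The strongest of both lines lay next to the centromere of chromosome 16 (chr16:46394482-46395057), with 746 and 747 reads, 196 and 167 RPM per kb (0.23, 0.08 to 0.37). Its neighbour at chr16:46389631-46391185 had 1811 and 1829 reads (0.19). WT cells had 608 and 1459 reads in these regions. All of the 5 strongest of ORC1KO cells lay on chromosome 16, with a GC content of 35.8% to 37.7%. Whether the mapping of repeats raised the reads near the centromere was not tested. Beside PNPLA7, the 5 strongest of ORC2KO cells included origins at the promoter of SERPINF2, the plasma inhibitor of plasmin (chr17:1741466-1742055; 538 and 653 reads, −0.07, −0.23 to 0.10) and at chr22:19725001-19727954 (1870 and 3230 reads over regions of unequal width, 0.05). Origins with 1000 or more reads in the 2 lines together had a median of −0.00038 (n = 1265). Those with 100 to 200 reads had 0.18 (n = 9116). With the GC trend removed, these medians were 0.03 and 0.05.

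Genes of the replication machinery held few matched origins, so that the absence of calls among them is near the share over all origins (3.37% higher, 0.687% lower). The ORC1 gene held 1 matched origin, in an intron (chr1:52396715-52397132), with 81 reads in ORC1KO and 70 in ORC2KO cells, or 29.0 and 21.4 RPM per kb (0.43, −0.05 to 0.92). It was on neither knockout list. No matched origin overlapped the ORC2 gene. Of 20 licensing genes, 7 had 9 matched origins, with a median of 0.07. Among the loaders, CDC6 had 142 and 136 reads (0.10) and CDT1 191 and 270 (−0.23). LRWD1, which encodes an ORC-binding chromatin protein, had a promoter origin with 101 and 112 reads over regions of unequal width (0.41, 0.0026 to 0.81). Its ratio of ratios to WT was 0.17. Of the helicase subunits, MCM7 had a promoter origin with 286 and 419 reads (−0.33, −0.55 to −0.11), MCM5 had 2 origins (−0.02 and 0.07) and MCM4 had 1 (0.13). Of 33 initiation and firing factors, 16 had 31 origins, with a median of 0.02. The highest by its interval was an intron of the primase subunit PRIM2 (103 against 112 reads over regions of unequal width, 0.56) and the lowest an exon of the helicase cofactor CDC45 (105 against 184, −0.30, −0.66 to 0.05). Single origins in POLE2, a subunit of DNA polymerase epsilon (117 against 78 reads, 0.57), and CDK2, the S-phase kinase (107 against 117, −0.15), lay on either side.

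Gene lists chosen for the tissue and for origin biology had medians on both sides of 0.09, that of all matched origins. After GC correction the medians were −0.11 in HOX cluster, −0.08 in intestinal epithelial and −0.04 in imprinted genes. They were −0.47 in protocadherin, −0.09 in histone and −0.08 in classically mapped genes, and 0.05 in mucin and in ribosomal protein genes. Large common fragile site genes, long genes in late-replicating and AT-rich DNA, had 100 origins with a median of 0.18, with 7 called higher (7.00%, beside 3.37% of all origins) and 1 lower. Of the 100, 20 lay in called blocks, against 8.14% of all origins, and outside the blocks the median was 0.16. These 20 were the origins of CSMD1 and WWOX, which held 3 of the 7 higher calls. Their median GC content was 48.3% and with the GC trend removed their median was 0.01. An intron of CSMD1 had the highest (171 against 118 reads, 0.83, 0.49 to 1.18), which lies on chromosome 8, and an intron of DAB1 the lowest (44 against 93, −0.66, −1.21 to −0.12). WWOX had 2 origins, at 0.54 and 0.78, in the called block of chromosome 16 from 75 to 80 Mb, and RBFOX1 had 22, from −0.41 to 0.54. HOX cluster genes, with 34 origins, had a median of −0.07. The lowest of them was the HOXD13 promoter (118 against 202 reads, −0.55). Intestinal epithelial genes had 50 origins (−0.04), among them the promoter of the stem cell factor ASCL2 with 99 and 181 reads (−0.56, −0.93 to −0.20). Imprinted genes had 54 origins (−0.04), with the PHLDA2 promoter at 100 and 164 reads (−0.49).

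Mucin genes, which encode the proteins of mucus, had 60 origins (0.10), with an exon of MUC12 at 314 and 260 reads (0.45, 0.21 to 0.69). Ribosomal protein genes had 29 origins (0.04). Genes known for classically mapped origins had 9 origins (0.03), and the 4 in LMNB2, the lamin B2 gene, ran from −0.44 to 0.03. Clustered protocadherin genes had 3 origins (−0.30). Clustered histone genes had 6 origins (0.04), the highest in H4C8 within the chromosome 6 stretch (115 against 62 reads, 1.10). Zinc finger genes on chromosome 19 had 144 origins with a median of 0.06 and 2 called higher (1.39%, beside 3.37% of all origins), and this median was −0.02 with the median of all origins set to 0, −0.01 as the ratio of ratios to WT and −0.03 after GC correction.

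The lists of called origins, which hold peaks found in both replicates, shared most but not all of their origins. Of 33530 ORC1KO origins, 24787 overlapped an ORC2KO origin by 1 bp or more (73.9%). Of 37811 ORC2KO origins, 24682 overlapped an ORC1KO origin (65.3%). In 24028 pairs each origin covered 0.5 or more of the other. Their midpoints were a median of 28 bp apart and 91.4% lay within 100 bp. The ORC2KO origin was the wider in 67.1% of pairs, with medians of 578 bp in ORC2KO and 540 bp in ORC1KO cells. Neighbouring origins were a median of 15406 bp apart in ORC1KO and 13155 bp in ORC2KO cells.

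The origins of one list only were 8743 in ORC1KO and 13129 in ORC2KO cells. Those of ORC1KO cells had a median GC content of 48.1% and those of ORC2KO cells 51.8%, beside 54.1% in shared origins. Their absolute GC skew was 0.39 and 0.31, beside 0.38 and 0.37 in the shared origins of the 2 lists. Promoters held 5.90% of the ORC1KO-only and 12.7% of the ORC2KO-only origins, CpG-island-like sequence 4.30% and 10.9%, and the ATCC repeat 1.32% and 0.724%, beside 3.47% in shared ORC1KO origins. They were weak, with a median of 102 reads in ORC1KO-only and 100 in ORC2KO-only origins, against 148 and 168 in shared ones. Of the ORC1KO-only origins 2367 (27.1%) were on the WT list and 3399 (38.9%) on the ORC5KO list, and of the ORC2KO-only origins 4635 (35.3%) and 7448 (56.7%).

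Origins of one list only had a count in the other line's table where they were also on the WT list. The 2338 ORC1KO-only origins with a match had a median log2 ratio of 0.23. Of these, 308 were called higher (13.2%, beside 3.37% of all matched origins) and 6 lower (0.257%, beside 0.687%). The 4570 ORC2KO-only origins had −0.01, with 112 called lower (2.45%) and 88 higher (1.93%). Peaks and counts come from the same reads, so these are not independent of the list. The 6376 ORC1KO-only and 8494 ORC2KO-only origins that were also absent from WT lie in no row of the other line's table, and no count of the other line could be given for them. The most deeply read ORC2KO-only origin lay in CTCFL, the germline paralogue of CTCF (chr20:57525115-57527513), with 1678 reads in ORC2KO cells in a row with 1413 WT reads, followed by NXNL2 (chr9:88534032-88535337; 1416 reads, with 1276 ORC1KO reads in the matched row and a ratio of 0.08) and TTC34 (chr1:2797739-2799221; 1387 reads, with 1162 ORC1KO reads and a ratio of 0.01). In ORC1KO cells they were near ERICH1 on chromosome 8 (950 reads, with 996 ORC2KO reads in the matched row and a ratio of 0.15) and in RNF212, a crossover factor of meiosis (chr4:1112516-1113491; 949 reads in the row that holds it and its neighbour, with 1149 ORC2KO reads and a ratio of −0.05).

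By chromosome, the lists differed in length. Chromosomes 8 and 13 had more origins in ORC1KO than in ORC2KO cells, 2246 against 1883 and 726 against 651. Of their ORC1KO origins 39.3% and 43.1% were on that list only, beside 26.1% of the whole ORC1KO list. Chromosome 6 also had 39.3%, with 1475 ORC1KO against 1487 ORC2KO origins. On all chromosomes but 8 and 13 the ORC1KO list was the shorter. The ratio of origin numbers was lowest on chromosome X (0.645), where 285 origins stood against 442. There 43.9% of the ORC2KO origins and 10.9% of the ORC1KO origins had no counterpart, beside 34.7% and 26.1% of the whole lists. Chromosome 19 is rich in GC and in genes. On it 9.83% of ORC1KO and 24.4% of ORC2KO origins were of one list only, beside 26.1% and 34.7% of the whole lists.

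**Figure D5:**
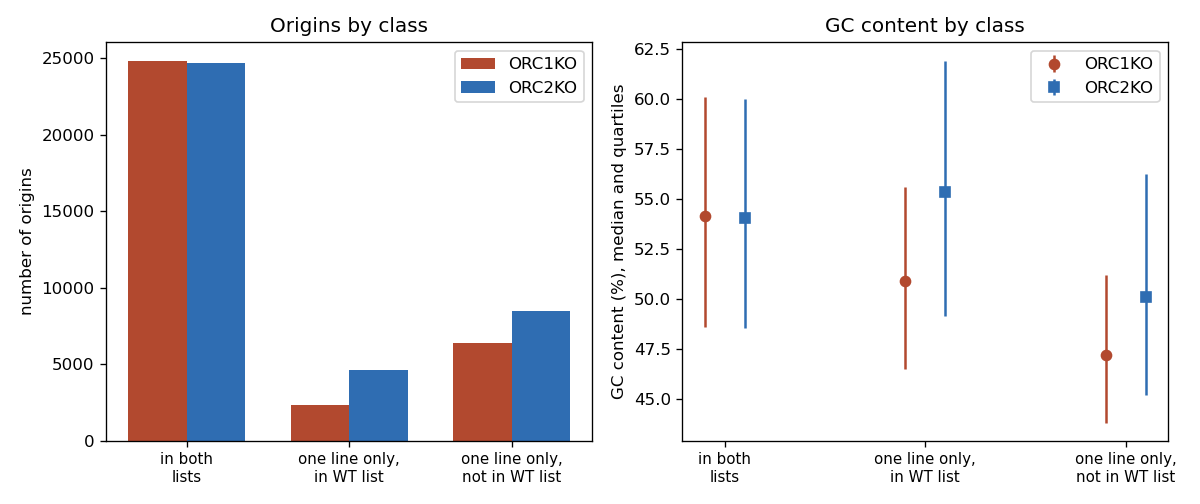
Left, number of origins of the ORC1KO (red) and ORC2KO (blue) lists in both lists, in one line only and on the WT list, and in one line only and absent from WT. Right, GC content in percent of the same classes (points, medians; bars, quartiles); ORC1KO-only origins absent from WT have a median of 47.2% and ORC2KO-only origins on the WT list 55.4%.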

How the data were processed

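SNS-seq was performed by the authors in WT, ORC1KO, ORC2KO and ORC5KO cells with 2 replicates each. Nascent strands were enriched by size and lambda exonuclease, per the labels. The submitters' processing notes name Trim Galore 0.6.4, Bowtie, MACS2 and bedtools, and the build GRCh38 (hg38). The deposited tables give raw counts per region for WT and one line, replicates merged. Deposited peak lists give positions only. How reads were counted and duplicates handled is not given in the sources used here, and intervals cover counting error only.

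Here, rows were paired one to one, largest overlap first. Reads were divided by the line's total in its table and by region width, without a pseudocount or count filter. Intervals of ratios are exact 95% Clopper-Pearson intervals. The tables hold WT, ORC1KO and ORC2KO totals of 6416892 to 7808290 reads. Contigs outside chromosomes 1 to 22 and X took 1.14% of ORC1KO and 1.06% of ORC2KO reads, which count in the totals. GC content, skew and motifs were read over the joined span of the 2 regions, and genes came from GENCODE release 44. GC correction subtracted a running median over 1001 origins. The ranking by interval bound covered all origins with 100 reads or more, then those outside called blocks, then each gene list, the ORC1 and ORC2 genes, the 5 strongest per line and the 3 deepest of one list only. An origin belonged to a gene if it overlapped the gene or its 2000 bp upstream. The comparison, the gene lists and the rules were chosen with earlier results of these data known. A few items are not reported here. The code for ratios and intervals was run on simulated counts with counting error only, which cannot test the spread between replicates. Software was Python 3.11.15, matplotlib 3.10.9, samtools 1.23.1, scipy 1.17.1, pandas 2.3.3, pysam 0.24.0, numpy 2.4.6, and R 4.3.3 with edgeR 4.0.16, used for TMM factors only.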

Additional observations from a re-analysis of the deposited data

How the results depend on the processing

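No paired analysis was possible because the tables merge the replicates, and for the same reason no replicate could be left out. Among all 35250 origins, 1187 were higher and 242 lower in ORC1KO cells. The counts were 703 and 439 with the median set to 0, 2131 and 852 without division by width, and 115 and 29 at 2-fold. They were 522 higher after GC correction and 551 lower as the ratio of ratios to WT. Other settings kept fewer origins. The counts were 485 and 75 among 7586 origins with identical limits, and 524 and 139 among 25996 with at least 200 reads. Without the called blocks they were 664 and 127 among 32380. Without the stretches, an alternative chosen after seeing the data, they were 623 and 92 among 31403. As a share of the origins kept, calls in each direction were more frequent with identical limits than over all matched origins. They were less frequent with at least 200 reads, without blocks and without stretches. Pairing at 0.8, pairing at 1 bp, matched reads and TMM factors left both counts within 1.5 times. A minimum of 50 reads removed no origin and so could not change them.

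The median log2 ratio of 0.09 was 0.073 with pairing at 0.8, 0.095 with identical limits, 0.070 with matched reads, 0.054 with TMM, 0 with centring or GC correction, 0.032 without width, 0.0042 against WT, 0.062 with 200 reads, 0.074 without blocks and 0.073 without stretches. The shift of centring, −0.09, was the largest of the scalings. The GC difference of 0.34 was 0.37 against WT, 0.0011 after GC correction, which removes it by construction, and 0.32 without blocks. Promoters minus others were −0.20 against WT, −0.043 GC corrected, −0.17 without blocks and −0.17 without stretches; CpG-island-like minus others −0.23 against WT and −0.023 GC corrected. Skew of 0.8 or more minus the rest was 0.10 against WT, 0.074 without blocks and reversed to −0.028 after GC correction. Chromosome 8 minus the rest was 0.20 against WT, 0.15 GC corrected and 0.075 without blocks, and chromosome 13 minus the rest 0.15 GC corrected and 0.12 without blocks.

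The median of the chromosome 19 zinc finger genes reversed to −0.025 with centring, −0.010 against WT and −0.034 after GC correction. Without division by width the origins of HAO1 (−0.0063), PEG10 (−0.12), RPL37A (−0.080) and ZNF536 (−0.17) reversed; these have wider regions in the ORC2KO table. Of 402 values of 67 named origins under other settings, 384 stayed within the interval and 14 left it with the same sign. The shared share of the lists was 71.7% and 63.5% at 0.5 of both, and 71.3% and 63.0% among origins at least as wide as the median. In 500 bp around the midpoint, GC content of list-only minus shared origins was −6.4 points in ORC1KO and −2.6 in ORC2KO, skew was −0.10 in ORC2KO, and the small skew difference of ORC1KO-only origins reversed to −0.0050. The cause of these shifts was not tested. A median of 127 to 142 reads per origin limits single ratios.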
